A study of Mus musculus with 2 samples.

Results

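The transcripts described here encode the proteins of the mitochondrial ribosome. They were taken as every gene symbol that starts with Mrpl or Mrps followed by a digit and is listed in both expression tables. The rule found 77 of 24346 symbols, 48 of the large subunit (Mrpl) and 29 of the small subunit (Mrps), on 17 chromosomes. All 77 are annotated as protein-coding and all were above 0 in both libraries.

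The RNA came from splenic CD4+ T cells of mice, isolated by sorting on day 14. The first group was HFD-MI with probucol and the other HFD-MI left untreated, with 1 library each. HFD-MI is the labels' name for the model that both groups share (the series title speaks of myocardial infarction), and probucol is a cholesterol-lowering drug with antioxidant activity. The sources used here leave strain, genotype, age, the number of animals per library and the term HypoE in both column headers unexplained. With 1 library per group no difference has a replicate check, and no test between groups was possible.

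The mitochondrial ribosome makes the few proteins encoded by mitochondrial DNA, nearly all of them core parts of the respiratory chain and ATP synthase. Its RNA comes from mitochondrial DNA, whereas all of its proteins are encoded in the nucleus, made in the cytosol and imported. Some of these proteins have counterparts in bacterial ribosomes and others occur only in mitochondria. Naive T cells hold few mitochondria, and activation sets off mitochondrial growth and translation, which is why this group of genes is of interest in T cells.

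Expression is given as FPKM (fragment numbers divided by transcript length and by the depth of the library), a scale on which genes of different length can be compared. From the steps between low values, 1 fragment on a transcript of 1 kb was worth 0.101 FPKM with probucol and 0.1 FPKM untreated, which implies about 9900000 and 10000000 mapped fragments. Members rested on an estimated 35 to 2682 fragments per library. The 95% intervals given with folds are exact binomial intervals on these estimates and cover counting error only. The T cell markers Cd4, Cd3e, Cd3d, Cd3g, Lck and Cd28 summed to 3930 FPKM with probucol and 3967 FPKM untreated, and the CD8 markers Cd8a and Cd8b1 to 16.1 and 19.9 FPKM, nearly all of it Cd8b1. Other cells differed between the libraries. The 6 B cell markers summed to 316 and 200.5 FPKM with all 6 higher with probucol, the 6 erythroid markers to 294 and 976 FPKM with all 6 lower, and the 10 markers of proliferating cells to 101.1 and 152 FPKM with all 10 lower. Neutrophil markers summed to 872 and 760 FPKM (4 of 4 higher), macrophage markers to 170 and 165 FPKM (4 of 6 higher) and natural killer cell markers to 4.23 and 11.1 FPKM (2 of 4 higher). No marker that matched a symbol was at 0. The part of these cells in the values below was not tested, and in such bulk RNA fewer cells of a type cannot be told apart from less RNA per cell.

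Promoters of the members are shown ahead of the values because genes of mitochondrial translation are known for sites of ETS factors (such as GABP), NRF1 and YY1. The RefSeq promoter table (GRCm38.p6) held 74 promoters for 68 of the 77 members, and the 250 bases before the RefSeq start, which can lie inside the longer GENCODE gene, were searched on both strands. The letters CCGGAAG (ETS) occurred in 17 of the 74 promoters (22.97%), against 15.1% of the 10275 promoters of genes tested here and 6.91% of all 32851 promoters in the table. The NRF1 letters, GCGCA, any base, then GCGC, occurred in 13.5%, against 8.79% of promoters of tested genes and 3.74% of all. AANATGGC (YY1) occurred in 9.46%, against 4.75% and 3.91%. Such letters were not particular to the members. In 71 promoters of nuclear respiratory chain and ATP synthase genes, ETS, NRF1 and YY1 letters occurred in 16.9%, 19.7% and 8.45%. In 75 promoters of cytosolic ribosomal protein genes they occurred in 26.7%, 1.33% and 16%. At least 1 of these motifs was found in 31 member promoters (41.9%), compared with 25.7% for tested genes and 13.4% for all promoters. The NRF1 letters were in 9 of 47 promoters of large subunit genes and in 1 of 27 of small subunit genes. GC boxes (GGGCGG) were found in 50% of member promoters and in 57.6% of those of tested genes, and TATA boxes (TATAAA) in 6.76% and 6.10%. The only overlap between different motifs in member promoters was an ETS site with a GC box in Mrpl17.

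The promoters printed next are those of the members whose levels differed most between the libraries (Mrps6, Mrps2 and Mrpl1), none of which held ETS, NRF1 or YY1 letters, followed by 3 that did. Mrpl47 had the highest ratio among large subunit genes and held YY1 letters at 2 places, Mrps21 was the most abundant small subunit transcript and held NRF1 letters, and Mrpl43 held ETS letters at 2 places. Capitals mark the ETS, NRF1 and YY1 matches only (GC boxes, which Mrps6, Mrpl1 and Mrpl43 hold, are left in lower case), and each sequence runs 5′ to 3′ on the gene's strand.
Mrps6, chr16:92058086-92058335, plus strand: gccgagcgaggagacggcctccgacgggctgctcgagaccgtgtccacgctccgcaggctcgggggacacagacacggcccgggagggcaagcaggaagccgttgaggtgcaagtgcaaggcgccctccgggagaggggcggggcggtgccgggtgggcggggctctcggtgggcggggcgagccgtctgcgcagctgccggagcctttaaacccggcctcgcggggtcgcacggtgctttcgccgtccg
Mrps2, chr2:28467816-28468065, plus strand: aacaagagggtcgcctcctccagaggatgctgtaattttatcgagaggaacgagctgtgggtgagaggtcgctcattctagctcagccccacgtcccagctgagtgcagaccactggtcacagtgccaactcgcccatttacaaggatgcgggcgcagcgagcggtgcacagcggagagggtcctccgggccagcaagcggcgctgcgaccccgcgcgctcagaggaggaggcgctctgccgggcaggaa
Mrpl1, chr5:96209865-96210114, plus strand: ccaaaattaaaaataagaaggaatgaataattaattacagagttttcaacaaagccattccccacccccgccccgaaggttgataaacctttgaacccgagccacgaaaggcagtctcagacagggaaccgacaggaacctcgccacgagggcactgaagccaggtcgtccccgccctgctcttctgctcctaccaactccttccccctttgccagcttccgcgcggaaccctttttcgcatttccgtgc
Mrpl47, chr3:32736756-32737005, minus strand: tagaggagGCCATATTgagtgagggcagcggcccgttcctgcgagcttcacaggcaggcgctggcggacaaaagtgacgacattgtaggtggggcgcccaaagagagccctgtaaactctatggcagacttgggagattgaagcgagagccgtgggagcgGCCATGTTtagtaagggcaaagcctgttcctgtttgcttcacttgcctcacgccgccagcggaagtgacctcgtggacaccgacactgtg
Mrps21, chr3:95871515-95871764, minus strand: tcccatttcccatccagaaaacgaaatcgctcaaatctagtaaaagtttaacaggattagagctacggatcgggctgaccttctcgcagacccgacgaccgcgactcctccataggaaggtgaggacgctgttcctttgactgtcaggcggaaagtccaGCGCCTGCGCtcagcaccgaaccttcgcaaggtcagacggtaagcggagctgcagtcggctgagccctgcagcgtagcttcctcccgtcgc
Mrpl43, chr19:45006443-45006692, minus strand: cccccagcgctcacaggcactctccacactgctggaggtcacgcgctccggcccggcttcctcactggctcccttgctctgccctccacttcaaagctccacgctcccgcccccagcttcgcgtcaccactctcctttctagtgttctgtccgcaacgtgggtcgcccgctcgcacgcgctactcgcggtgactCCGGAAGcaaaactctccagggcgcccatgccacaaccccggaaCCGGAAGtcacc

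The members were expressed well above the typical gene. Their median level was 57.0 FPKM with probucol and 64.1 FPKM untreated, 3.82 and 4.45 times the median of all genes that averaged at least 1 FPKM, and above 81.3% and 83.1% of those genes. Within the family the levels spread widely although the proteins are thought to be present at about 1 copy each in a ribosome (the stalk protein Mrpl12 is an exception). The highest member was 63.7 times the lowest with probucol and 56.2 times untreated, and the upper quartile was 2.74 and 2.42 times the lower. The order was nearly the same in both libraries. Of the 10 highest members 9 were shared, and of the 20 lowest 19 were. Across the 77 genes the log2 levels of the 2 libraries correlated with Pearson r = 0.98 and Spearman rho = 0.98, a description over genes that share their transcript lengths and library chemistry.

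**Figure D1:**
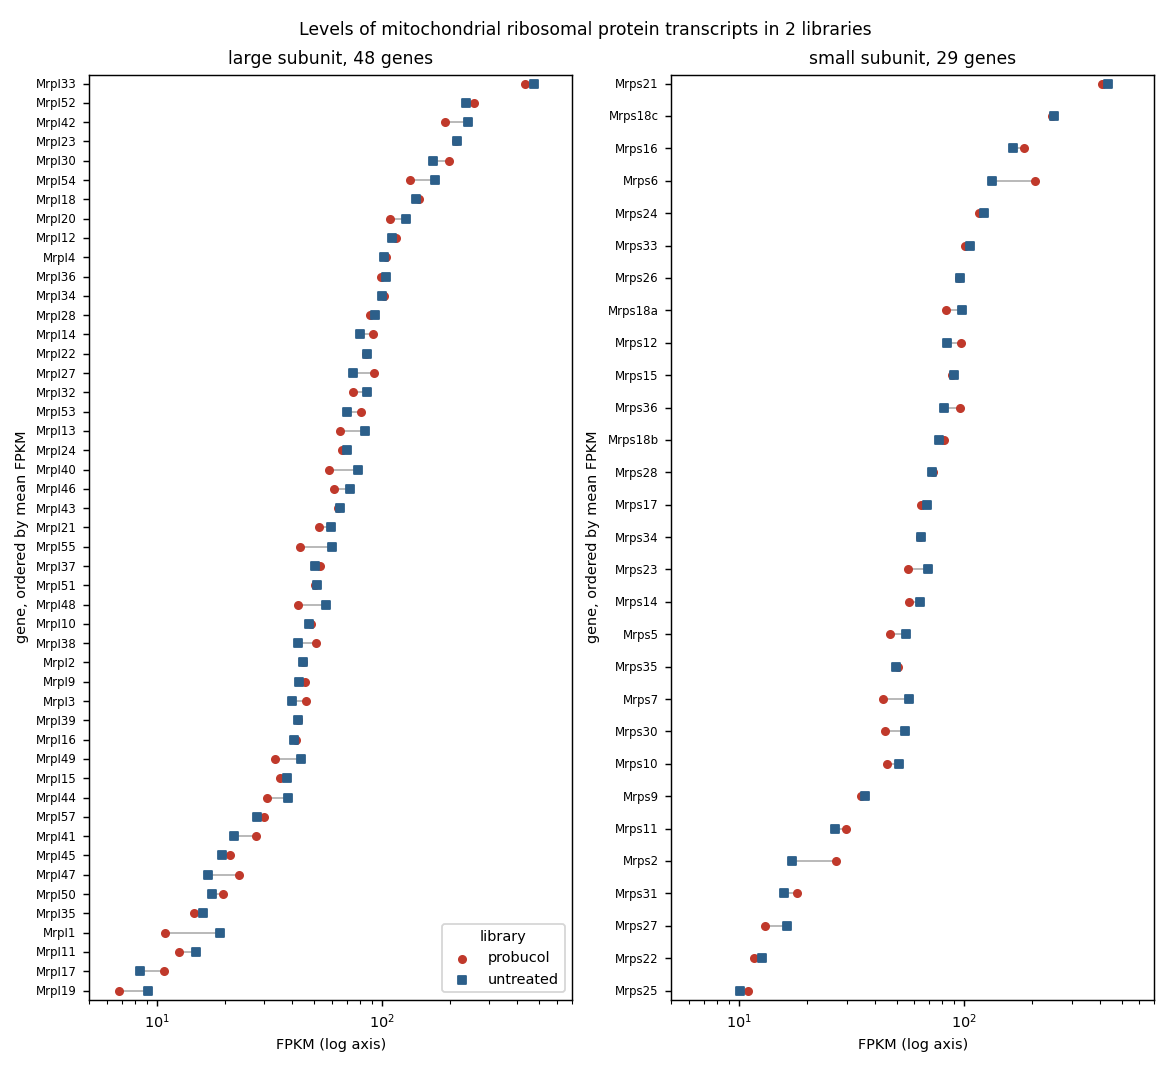
FPKM of each member (log axis) in the probucol library (circles) and the untreated library (squares), large subunit on the left and small subunit on the right, ordered by mean level. Levels run from 6.76 to 473 FPKM, and the 2 libraries lie close together for most genes, with Mrps6, Mrps2 and Mrpl1 furthest apart.

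Mrpl33 (chromosome 5, 31596935 to 31664384, mm10), a large subunit protein with a bacterial counterpart, was the highest at 431 FPKM with probucol and 473 FPKM untreated. Mrps21 (chromosome 3, 95862634 to 95871519), which also has a bacterial counterpart, followed at 408 and 437 FPKM. Below them came Mrps18c at 245 and 251 FPKM and Mrpl52 at 257 and 236 FPKM. Mrpl42 was at 190 and 241 FPKM, and Mrpl23, a protein near the exit of the peptide tunnel, at 213 and 216 FPKM. Mrpl30 was at 199 and 168 FPKM, Mrps16 at 183 and 165 FPKM, and Mrpl54 at 133 and 172 FPKM. With Mrps6, these were the 10 most abundant members, and only Mrps6 differed by over 1.5-fold. At the low end stood Mrpl19 at 6.76 and 9.12 FPKM, Mrpl17 at 10.8 and 8.43 FPKM, Mrps25 at 10.95 and 10.1 FPKM, Mrps22 at 11.6 and 12.7 FPKM, Mrpl11 at 12.5 and 14.9 FPKM, and Mrps27 at 13.1 and 16.3 FPKM. Mrpl11 sits beside Mrpl10 and Mrpl12 in the stalk that in bacteria recruits translation factors, yet its transcript was several times lower than theirs, which were at 48.6 and 47.3 FPKM for Mrpl10 and 115 and 110.3 FPKM for Mrpl12.

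Large and small subunit genes had similar levels. The small subunit median was 63.5 FPKM with probucol and 68.0 FPKM untreated, and the large subunit median was 52.7 and 59.7 FPKM, a small to large ratio of 1.21 and 1.14. By the mean instead of the median this ratio was 1.096 and 1.05. The quartiles overlapped broadly, from 49.98 to 96.1 FPKM in the small and from 39.3 to 95.1 FPKM in the large subunit untreated. Members at 100 FPKM or more numbered 12 of 48 in the large and 6 of 29 in the small subunit untreated, and 11 and 6 with probucol. Summed over genes, the large subunit came to 3757 FPKM with probucol and 3916 FPKM untreated, and the small subunit to 2489 and 2480 FPKM. Without Mrps6, left out after its value was seen, the small subunit summed to 2282 and 2347 FPKM.

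Longer transcripts tended to be lower. Over the 77 members the log2 mean level correlated with log2 median transcript length at r = -0.44 (rho = -0.51), and over 10269 genes with a known length at r = -0.30 (rho = -0.28), again as a description over genes. The 13 members under 600 bp had median levels of 96.7 FPKM with probucol and 85.3 FPKM untreated, and the 14 members of 1500 bp or more 32.6 and 32.9 FPKM. Exceptions were Mrps16 and Mrps26, with median transcripts of 1687 and 2668 bp and mean levels of 174 and 95.4 FPKM. FPKM divides by an assumed effective length, so levels of the shortest transcripts are the least certain. The log2 ratio between the libraries had no linear relation to log2 length (r = -0.02). Its median over members was 0.05 under 600 bp and 0.06 at 1500 bp or more. In between it was -0.08 (600 to under 1000 bp) and -0.07 (1000 to under 1500 bp).

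**Figure D2:**
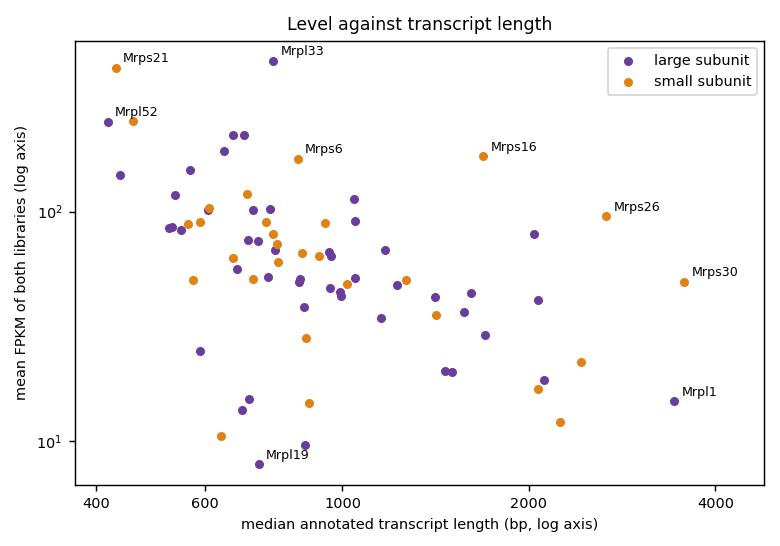
Mean FPKM of both libraries (log axis) against the median length of annotated transcripts (bp, log axis) for each member, coloured by subunit. Median levels with probucol fall from 96.7 FPKM under 600 bp to 32.6 FPKM at 1500 bp or more, while Mrps16 and Mrps26 are long and high at 174 and 95.4 FPKM.

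Between the libraries the family as a whole was close to level. The log2 ratio, taken as log2((probucol + 1)/(untreated + 1)) on FPKM, had a median of -0.02 over the members and 0.02 over all 10663 genes averaging at least 1 FPKM, the genes tested. Of the 77 members 34 were higher with probucol (44.2%), where 52.7% of all genes were, and 43 were lower (55.8%), where 47.3% were. Among genes averaging at least 5 FPKM 51.7% were higher and 48.3% lower, with a median of 0.01. At 10 FPKM or more these were 50.2% and 49.8%, with a median of 0.0008. With both libraries rescaled to the same sum the split was 38 to 39, where all genes split into 5899 higher and 4762 lower. Centred on the median gene, 31 members were higher and 46 lower, where all genes split evenly (5331 each way). The large subunit had a median of -0.01 with 23 higher and 25 lower, and the small subunit of -0.04 with 11 higher and 18 lower. The large subunit median became 0.00889 after rescaling to the same sum, so its sign is not settled. The same rescaling moved the median over all genes from 0.02 to 0.04. Centred on the median gene, the large subunit median was -0.03. The difference of the subunit medians, small minus large, was -0.02 on the log2 scale, and 0.05 by the mean.

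Few members moved far. None reached 2-fold in either direction, where 1.62% of all genes were at least 2-fold higher and 1.98% at least 2-fold lower. Shares this small do not set a group of 77 genes apart. A ratio of at least 1.5 was reached by 2 members upward and 1 downward, against 5.99% and 5.53% of all genes. A moderate difference was defined as a log2 ratio of 0.32 or more in size, a ratio of 5 to 4. By this limit 3 members (3.90%) were moderately higher, against 17.8% of all genes, and 10 members (13.0%) were moderately lower, against 14.1%. Among genes averaging at least 5 FPKM, a limit that all members pass, 14.7% were moderately higher and 11.2% moderately lower. At 10 FPKM or more, which most members pass, these shares were 12.2% and 9.83%. Within the moderate limit lay 64 of 77 members (83.1%), against 68.1% of all genes. Among genes averaging at least 5 and at least 10 FPKM the shares were 74.2% and 77.9%. The counting interval of the fold lay above 1 for 8 members (10.4%) and below 1 for 17 (22.1%), against 19.3% and 17.9% of genes with a known length. For the other 52 members it included 1.

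**Figure D3:**
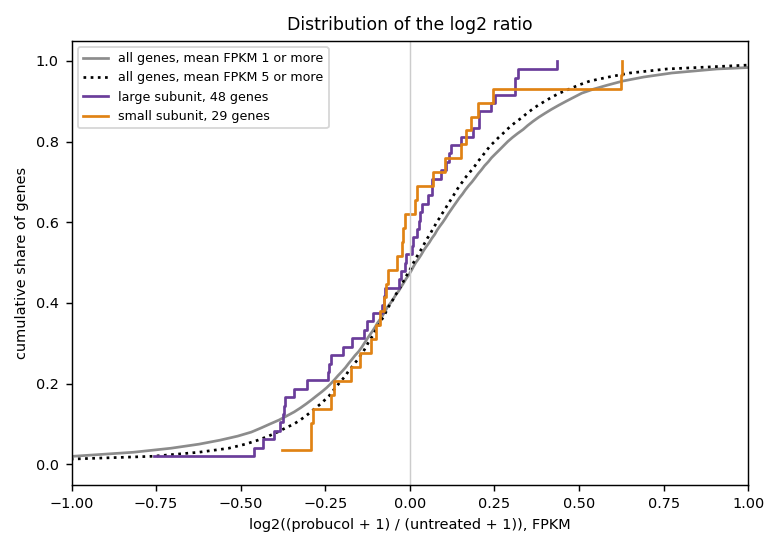
Cumulative share of genes (vertical axis) by log2 ratio of probucol over untreated on FPKM + 1 (horizontal axis, drawn from -1 to 1) for the 48 large subunit members, the 29 small subunit members, and all genes averaging at least 1 or at least 5 FPKM. Both subunits cross 0.5 near a log2 ratio of 0 and have upper quartiles of 0.11 (large) and 0.10 (small), against 0.23 for all genes. Lower quartiles are -0.23 (large) and -0.15 (small), against -0.18 for all genes averaging at least 1 FPKM.

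The highest ratios belonged to a pair of small subunit genes. Mrps6 (chromosome 16, 92058270 to 92112227, plus strand), which in bacterial ribosomes has its counterpart on the platform of the small subunit, had 207 FPKM under probucol against 133 FPKM without. It was 1.55-fold higher (1.42 to 1.69). Its exons overlap on the same strand those of Gm49711 and of Slc5a3, the sodium/myo-inositol cotransporter, which had 3.43 and 1.56 FPKM. Mrps2 (chromosome 2, 28468066 to 28471178, plus strand), a protein with a bacterial counterpart that bridges head and body of the small subunit, had 27.03 FPKM against 17.2 FPKM, 1.57-fold higher (1.38 to 1.79), and overlaps no other annotated exon. Mrpl47 (chromosome 3, 32725397 to 32737605, minus strand), at the peptide exit, had 23.1 FPKM against 16.8 FPKM, which is 1.37-fold higher (1.15 to 1.64). Its exons overlap on the opposite strand those of Ndufb5 and Actl6a, which were nearly level at 1.004 and 1.05 times their untreated values. These 3 genes were the only moderately higher members on the scale of FPKM + 1.

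Behind them followed 5 members between 1.19-fold and 1.28-fold by FPKM. Mrpl17 was at 10.8 and 8.43 FPKM and Mrpl41 at 27.5 and 21.99 FPKM, and the counting intervals of both, 0.885 to 1.85 and 0.926 to 1.70, included 1. Mrpl27, which in bacteria reaches toward the site of peptide bond formation, had 92.2 FPKM against 74.2 FPKM, 1.24-fold higher (1.05 to 1.48). Mrpl38 was 1.19-fold (1.03 to 1.39) and Mrps36 1.19-fold higher (1.01 to 1.40). Mrps36 carries a ribosomal symbol but is known as a subunit of the alpha-ketoglutarate dehydrogenase complex.

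The lowest ratio was that of Mrpl1 (chromosome 5, 96209493 to 96266727, plus strand), whose bacterial counterpart forms the mobile stalk beside the exit site for transfer RNA. It had 10.9 FPKM under probucol against 19.1 FPKM without, 1.75-fold lower (1.53 to 2.01), on an estimated 347 and 612 fragments, and overlaps no other annotated exon. The next were Mrpl55 at 43.3 and 60.0 FPKM, 1.39-fold lower (1.17 to 1.65), and Mrpl40 at 57.9 and 78.5 FPKM, 1.36-fold lower (1.17 to 1.57). Mrpl48 had 42.2 FPKM against 56.1 FPKM, 1.33-fold lower (1.13 to 1.56). Mrpl19 was 1.35-fold lower, but on 35 and 47 fragments, with an interval of 0.853 to 2.16 that included 1. Mrps7, which binds ribosomal RNA in the head of the small subunit, had 43.7 FPKM against 57.0 FPKM, 1.31-fold lower (1.15 to 1.48). It overlaps Mif4gd on the opposite strand, which was also lower, at 93.5 and 141 FPKM, and Gga3, also on the opposite strand, which was higher, at 15.6 and 13.5 FPKM. Where they overlap, the reads of these genes cannot be told apart. The opposite-strand partners of 3 other lower members had ratios above 1, at 1.27 (Mtbp, with Mrpl13), 1.13 (Rab6a, with Mrpl48) and 1.08 (Syvn1, with Mrpl49), and that of Mrpl19, Gcfc2, was at 0.852. Mrpl54 (1.15 to 1.47), Mrpl49 (1.09 to 1.56) and Mrpl13 (1.12 to 1.501) were each 1.30-fold lower, and Mrpl42 1.27-fold (1.16 to 1.39). Mrps7 was thus the only small subunit gene among the 10 that were moderately lower (1 of 29, 3.45%). The other 9 belonged to the large subunit (9 of 48, 18.8%), where 14.1% of all genes were moderately lower. Whether the subunits differ in this was not tested.

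**Figure D4:**
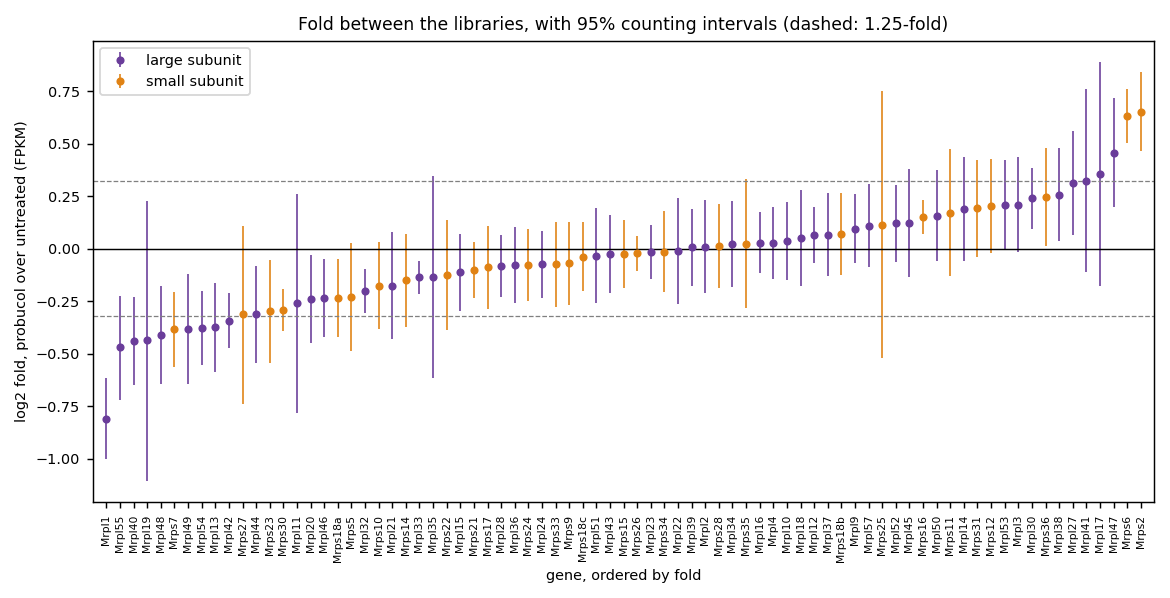
Log2 fold of probucol over untreated on FPKM for each member, ordered by fold, with 95% counting intervals as bars and dashed lines at the moderate limit, coloured by subunit. Most intervals cross 0, Mrpl1 stands lowest at 1.75-fold lower, and Mrps6 and Mrps2 stand highest at over 1.5-fold higher.

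Exons of 32 members overlap those of another annotated gene, 27 of them on the opposite strand. The 45 members without such an overlap had a median log2 ratio of -0.02, with 21 higher and 24 lower. Of these 45, 1 was moderately higher and 5 were moderately lower, where 17.8% and 14.1% of all genes were, so that the lower ones are near the share over all genes. Mrpl46 and Mrps11 overlap each other on opposite strands. Mrpl46 had 60.9 FPKM under probucol against 71.7 FPKM, and Mrps11 29.9 against 26.5 FPKM, with an interval of the fold of 0.913 to 1.39 that included 1.

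By origin, members were split at Mrpl36 (with Mrpl47 added to the bacterial type) and by a fixed list for the small subunit. The numbering is an imperfect guide, since Mrpl55, counted here as specific to mitochondria, is treated as a bacterial counterpart in structural naming. The 47 members of bacterial type had median levels of 72.8 FPKM with probucol and 74.2 FPKM untreated, and the 30 members specific to mitochondria 50.5 and 52.9 FPKM. Their median log2 ratios were -0.02 in both groups. In the large subunit 6 of 19 genes specific to mitochondria were moderately lower (31.6%) and 0 higher, namely Mrpl55, Mrpl40, Mrpl48, Mrpl54, Mrpl49 and Mrpl42. Of 29 genes of bacterial type 3 were moderately lower (10.3%) and 1 higher (3.45%), where 14.1% of all genes were lower and 17.8% higher. In the small subunit none of the 11 genes specific to mitochondria reached the moderate limit. Mrps30, which by its symbol is a small subunit protein but sits in the large subunit of the mammalian mitochondrial ribosome, had 44.5 FPKM against 54.5 FPKM, 1.22-fold lower (1.14 to 1.31).

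The members were also grouped by their place in the structure. In the central protuberance of the large subunit, Mrpl40, Mrpl48 and Mrpl46 were lower, Mrpl46 by 1.18-fold (1.04 to 1.34), while Mrpl38 was higher and Mrpl18, at 146 and 141 FPKM, was nearly level. Around the exit of the peptide tunnel, Mrpl47 was higher and Mrpl44, with 30.7 FPKM against 38.1 FPKM, was 1.24-fold lower (1.06 to 1.46). Mrpl22, Mrpl23 and Mrpl24 were at 0.991, 0.989 and 0.9502 of their untreated level, and Mrpl45, which tethers the ribosome to the inner membrane, was at 21.1 and 19.4 FPKM. The stalk genes Mrpl10 and Mrpl12 were at 1.03 and 1.05 times their untreated level and Mrpl11 at 0.836 times (0.581 to 1.20). Mrps12, a protein of the decoding centre, had 96.7 FPKM against 83.9 FPKM, with a ratio of 1.15 (0.987 to 1.35). The paralogs Mrps18a, Mrps18b and Mrps18c share a bacterial relative. Mrps18c was the most abundant, Mrps18b was at 81.4 and 77.5 FPKM, and Mrps18a, which is placed in the large subunit of the mammalian ribosome, had 83.0 FPKM against 97.7 FPKM, 1.18-fold lower (1.04 to 1.34).

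Of the 10 members past the moderate limit in either direction that had a promoter entry, 2 held an ETS, NRF1 or YY1 motif, and of the 58 other members with an entry 29 did. The 17 members with the ETS letters had a median log2 ratio of -0.01 and the other members with an entry of -0.07. For the NRF1 letters these medians were 0.08 (10 members) and -0.03. For the YY1 letters they went the other way, at -0.07 (7 members) and -0.02.

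Other genes that serve the mitochondrial ribosome were set beside the members. The 6 ribosomal proteins named otherwise were Dap3, Aurkaip1, Ptcd3, Chchd1, Gadd45gip1 and Ict1. Of these 2 were higher and 4 lower, with none past the moderate limit and a median of -0.09. Ptcd3, which binds incoming messenger RNA at the small subunit, was the lowest with 25.7 FPKM against 32.2 FPKM, a log2 ratio of -0.31. The 26 assembly genes had a median of -0.06, with 4 moderately higher (15.4%, against 17.8% of all genes) and 2 moderately lower (7.69%, against 14.1%). Tfb1m, the methyltransferase that modifies the RNA of the small subunit, was the lowest of them with 3.65 FPKM under probucol against 10.1 FPKM without, 2.77-fold lower (1.94 to 4.02). Mettl15 had the highest ratio of them, 6.67 FPKM against 4.09 FPKM, on an interval of 0.976 to 2.77 that included 1. Mpv17l2 was 1.39-fold lower (1.09 to 1.77), and the assembly factors Mterf3 and Mettl17 were 1.34-fold (1.098 to 1.64) and 1.33-fold higher (1.14 to 1.56).

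Among the 12 translation factors 8 were higher and 4 lower, with a median of 0.12 (order-statistic 95% interval over genes -0.06 to 0.28) and 2 moderately higher (16.7%, against 17.8% of all genes). These were Gfm1, the elongation factor that moves the ribosome along, with 32.05 FPKM against 19.8 FPKM or 1.62-fold higher (1.41 to 1.85), and Gfm2, which acts in ribosome recycling, 1.46-fold higher (1.24 to 1.72). The 20 genes that charge mitochondrial transfer RNAs had a median of 0.26 (-0.15 to 0.38), with 7 moderately higher (35%) and 1 moderately lower (5%), against 17.8% and 14.1% of all genes. Sars2, for serine, was 1.77-fold higher (1.45 to 2.16), and Mars2, for methionine, 1.36-fold lower (1.22 to 1.52). The 17 genes of mitochondrial DNA expression had a median of 0.20 (-0.13 to 0.34), with 7 moderately higher (41.2%) and 1 moderately lower (5.88%), against the same 17.8% and 14.1%. The intervals of these 3 medians included 0, while those of the cytosolic ribosomal, respiratory and protein import genes described next lay below 0. Such intervals describe the spread over genes with 1 library per group and are no test of probucol. Mterf1a was at 7.42 and 4.69 FPKM, and Polg2, a subunit of the mitochondrial DNA polymerase, was 1.33-fold lower (1.101 to 1.60). Of 10 regulators of mitochondrial growth, 9 averaged at least 1 FPKM, with a median of 0.08, and Ppargc1a did not. Ppargc1b, a coactivator of mitochondrial genes, was the only one past the moderate limit (11.1%, against 17.8% of all genes moderately higher). It had 4.27 FPKM against 3.21 FPKM, 1.33-fold higher (1.02 to 1.74). Its log2 ratio of 0.324 lay just past the limit of 0.322. Myc had 74.7 FPKM against 67.3 FPKM, 1.11-fold higher (1.02 to 1.21). Nrf1, Gabpa, Gabpb1, Yy1, Esrra, Pprc1 and Tfam had intervals that included 1.

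Most genes of the cytosolic ribosome and the respiratory chain were lower with probucol. Of 81 cytosolic ribosomal protein genes 75 were lower (92.6%), with a median of -0.18 and an interquartile range of 0.13 on the log2 scale. Of 78 nuclear genes of the respiratory chain and ATP synthase 67 were lower (85.9%), with a median of -0.11 and an interquartile range of 0.14. The 23 protein import genes had 17 lower (73.9%) and a median of -0.07. The mitochondrial ribosomal proteins, with 55.8% lower and an interquartile range of 0.30, had a more even split and a wider spread than these lists. Their spread was narrower than that of all genes (0.41) and of genes averaging at least 5 FPKM (0.36). The cytosolic ribosomal and respiratory lists also differ from the members in level, given below. The import genes had median levels near those of the members, 56.7 FPKM with probucol and 59.1 FPKM untreated, and an interquartile range of 0.11. The part of counting error in these spreads was not tested. These are descriptions of 2 libraries, and the differences between lists were not tested. Rescaling to the same sum gave 73, 61 and 16 lower genes in these 3 lists. Near-identical copies of cytosolic ribosomal protein genes make single values there uncertain. Over the same tested genes, median levels of the respiratory genes were 4.58 and 4.42 times those of the members with probucol and untreated, and those of the cytosolic ribosomal proteins 21.7 and 21.03 times.

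**Figure D5:**
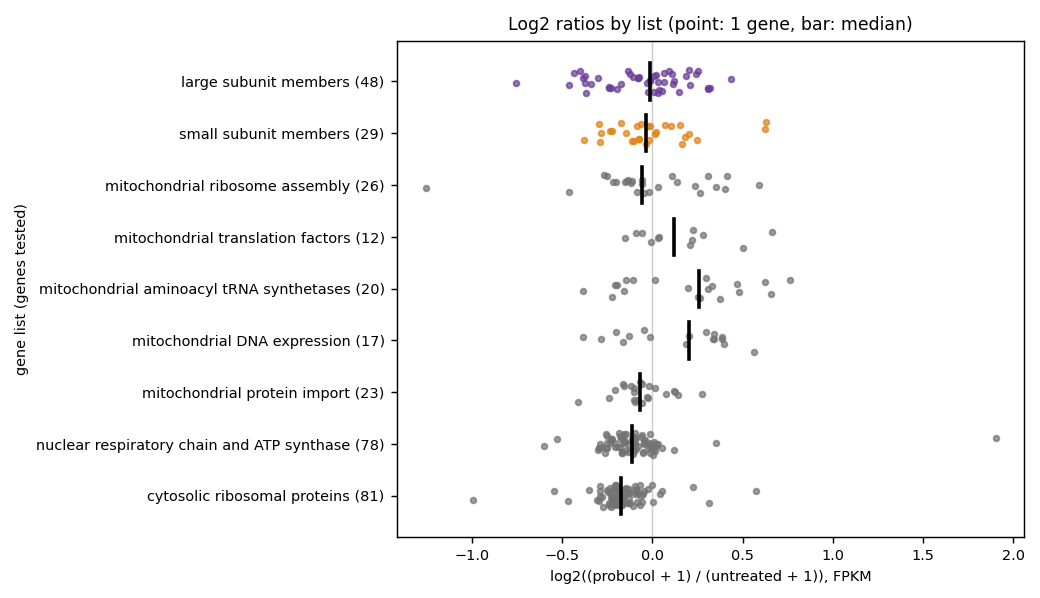
Log2 ratio of probucol over untreated on FPKM + 1 for each gene (points, spread vertically for sight only) and the median (bar) of the members by subunit and of 7 lists, with the number of genes tested. The members scatter around 0, cytosolic ribosomal proteins and respiratory genes lie in narrow bands with medians of -0.18 and -0.11, and aminoacyl tRNA synthetases have a median of 0.26.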

How the data were processed

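RNA was sequenced in 2 libraries, 1 per group. Per the labels' protocols, cDNA synthesis used a SMART-Seq HT kit and library preparation a Nextera kit, and no molecular identifiers or stranded counting are named. The deposited values are FPKM per gene symbol, per the file headers. The submitters' processing notes list TopHat2 2.1.1, Bowtie2, Cuffdiff 2.2.1 and build mm10; the annotation used is not given in the sources used here. No count model was fitted.

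Ratios were taken as log2 of FPKM + 1 at a mean FPKM of 1 or more, in Python 3.11.15. Transcript lengths and overlaps came from GENCODE release M21 (GRCm38, the assembly of mm10), which matched 23310 symbols. Fragment numbers were estimated from steps in low FPKM values of genes with 1 transcript of 800 to 10000 bp (81.2% and 80.8% lay within 0.1 of a whole number, where 20% would by chance) and from median transcript lengths. These lengths account for 5500000 and 5570000 fragments, so numbers for genes with several transcripts are approximate and may be low. Calculations were tested on simulated data. Members and lists were chosen with earlier results of these data known. Named genes were the 10 highest and 6 lowest members by level, the 8 highest and 8 lowest by ratio, fixed structural groups, and up to 3 extremes per direction of each list, not all printed; Mrpl46 with Mrps11, Mrps16 and Mrps26 by length, and genes overlapping a member were added after values were seen. Trac, Hbb-bt and Ly6g found no match and were not analysed here.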

Additional observations from a re-analysis of the deposited data

How the results depend on the processing

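Of 85 values recomputed under 11 alternatives, 82 kept within a set band. For medians the band was the order-statistic 95% interval over genes, and for counts it was 1.5 times. The difference of the subunit medians had a wider band, -0.17 to 0.20, from opposite limits of both subunits' intervals. Its change of sign by the mean therefore counted as kept. The band of the small to large level ratio ran from 0.64 to 2.11. The tally of 82 includes alternatives that could not change a value. All members are protein-coding and average over 5 FPKM. Dropping the filter, raising it to 5 FPKM or leaving out pseudogene symbols therefore repeated the main values. The moderately higher members (log2 ratio of 0.32 or more) numbered 3, but 5 with pseudocount 0.1 (Mrpl17 and Mrpl41 added), 6 with both libraries rescaled to the same sum (Mrpl27 as well) and 5 with a spline on length and GC removed (Mrpl17 and Mrpl38 added). The moderately lower numbered 9 to 11. The members' median ran from -0.05 without members under 600 bp to -0.00180 after rescaling. It was below 0 in the 10 that recompute it, among them the alternatives that could not change it. Rescaling moved the median over all genes to 0.04. The difference of the subunits, small minus large, was negative except by the mean (0.05). An alternative chosen after seeing the data left out members with an exon overlap, which gave 21 higher, 24 lower, 1 moderately higher and 5 moderately lower, with fewer genes counted. No paired analysis was possible because each group has 1 library. Depth limits the lowest members: Mrpl19, Mrps25, Mrpl17, Mrpl11 and Mrpl35 rest on under 100 fragments in each library.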
